A study of Mus musculus with 2 samples.

Results

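The cells described here are Neurod6-positive excitatory neurons of the newborn mouse dentate gyrus dissection that carry transcripts of Nwd2, Hs3st4, Cpne4, Nptx1 and Cyp26b1. They were chosen by measured counts: a cell barcode with at least 500 genes, at least 1000 unique molecular identifiers (UMIs, each standing for 1 captured transcript) and at most 10% mitochondrial UMIs was a member if it had at least 1 Neurod6 UMI, at least 1 UMI of 3 or more of these 5 genes, and at most 2 UMIs of Gad1 and Gad2 together. The rule found 691 of 4996 cells. They were 471 of 3029 cells in the control library, 15.5% with a 95% exact binomial (Clopper-Pearson) interval of 14.3 to 16.9%, and 220 of 1967 cells in the KO library, 11.2% with an interval of 9.82 to 12.7%. Because the levels of the 6 rule genes chose the cells, they are given below only as a description.

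The study dissected the dentate gyrus of mice at postnatal day 2 and compared hGFAP-Cre;Kdm6bF/F animals, in which the loxP-flanked gene of the histone H3K27 demethylase KDM6B is removed by Cre, with their littermate controls, which the labels call WT. The hGFAP-Cre transgene puts Cre under a human GFAP promoter, which is active in radial glia, so that their descendants, hippocampal neurons included, inherit the deletion. Cells were released with papain, and 2 animals of each genotype were pooled into 1 library with the 10x Genomics 3′ assay. Each genotype has a single library, so no difference could be tested or checked against a replicate, and all intervals cover counting error only, so that the values compare these 2 libraries and not the genotypes.

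Neurod6 is a basic helix-loop-helix transcription factor of postmitotic pallial excitatory neurons, the neurons that form the pyramidal cell fields of the hippocampus and the granule cell layer of the dentate gyrus. Such neurons first hold high levels of microtubule and migration genes, and later build up vesicular glutamate transporters, synaptic vesicle proteins and ion channels. Among the rule genes, Cyp26b1 encodes an enzyme that clears retinoic acid, Nptx1 a secreted pentraxin that gathers AMPA-type glutamate receptors at synapses, Hs3st4 a heparan sulfate sulfotransferase and Cpne4 a calcium-binding copine.

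Member neurons were deep: the control members held 10644945 UMIs and the KO members 6170121, with medians of 20734 and 26057.5 UMIs and 5161 and 5727.5 genes per cell, against 7394 and 9411 UMIs over all cells that passed. Sex differed between the libraries: 171 control members had Y-linked UMIs without Xist, 200 had Xist without Y-linked UMIs and 86 had both, whereas 219 of the 220 KO members had Xist alone. The libraries shared 9 barcodes as deposited, of which 3 were members in either library and none in both. Summed markers of endothelial cells stood at 83.9 and 44.6 CPM (counts of a gene or list, scaled to a common total of UMIs per group of cells) in control and KO members, with at most 339 UMIs in a control cell and 40 in a KO cell. Microglial markers summed to 9.11 and 17.3 CPM. More than 3 UMIs of vascular or microglial markers were found in 53 control and 20 KO members, and results that moved without these cells are marked.

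Within the members, Neurod6 was the most abundant rule gene, with 1458 CPM in the control and 1309 CPM in the KO library, and a median of 32 and 33.5 UMIs per cell. Cpne4 (chromosome 9, 104547286 to 105034544, plus strand, GRCm38) followed at 362 and 279 CPM and was detected in 99.8% and 99.5% of members. Hs3st4 (chromosome 7, 123982869 to 124398989, plus strand) stood at 176 and 98.9 CPM, and Nptx1 (chromosome 11, 119538719 to 119547753, minus strand) at 104 and 87.2 CPM. These 3 genes were each detected in most members of both libraries. Nwd2 (chromosome 5, 63649102 to 63810546, plus strand), which encodes a protein with NACHT and WD repeat domains, stood at 63.5 and 45.2 CPM with UMIs in 63.5% and 65.0% of members. Cyp26b1 (chromosome 6, 84571414 to 84593908, minus strand) was the rule gene on which the libraries were farthest apart, with 88.2 CPM in control and 8.91 CPM in KO members.

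The edge of the rule lies between cells with 2 and cells with 3 of the 5 genes. Just outside it, 122 control cells (4.03% of the library) and 150 KO cells (7.63%) had exactly 2 of the genes, and just inside it 173 and 112 had exactly 3. Hs3st4 stood at 60.4 and 25.7 CPM outside and at 152 and 61.6 CPM inside, and Nptx1 at 50.02 and 50.4 CPM outside and at 78.3 and 78.1 CPM inside. Depth rose along the same scale, from a median of 4746 UMIs in control Neurod6 cells with none of the 5 genes to 13537.5 with 2, 16970 with 3 and 23372 with all 5, so that the number of genes detected and the depth moved together. All 5 genes were found in 114 control and 14 KO members.

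**Figure D1:**
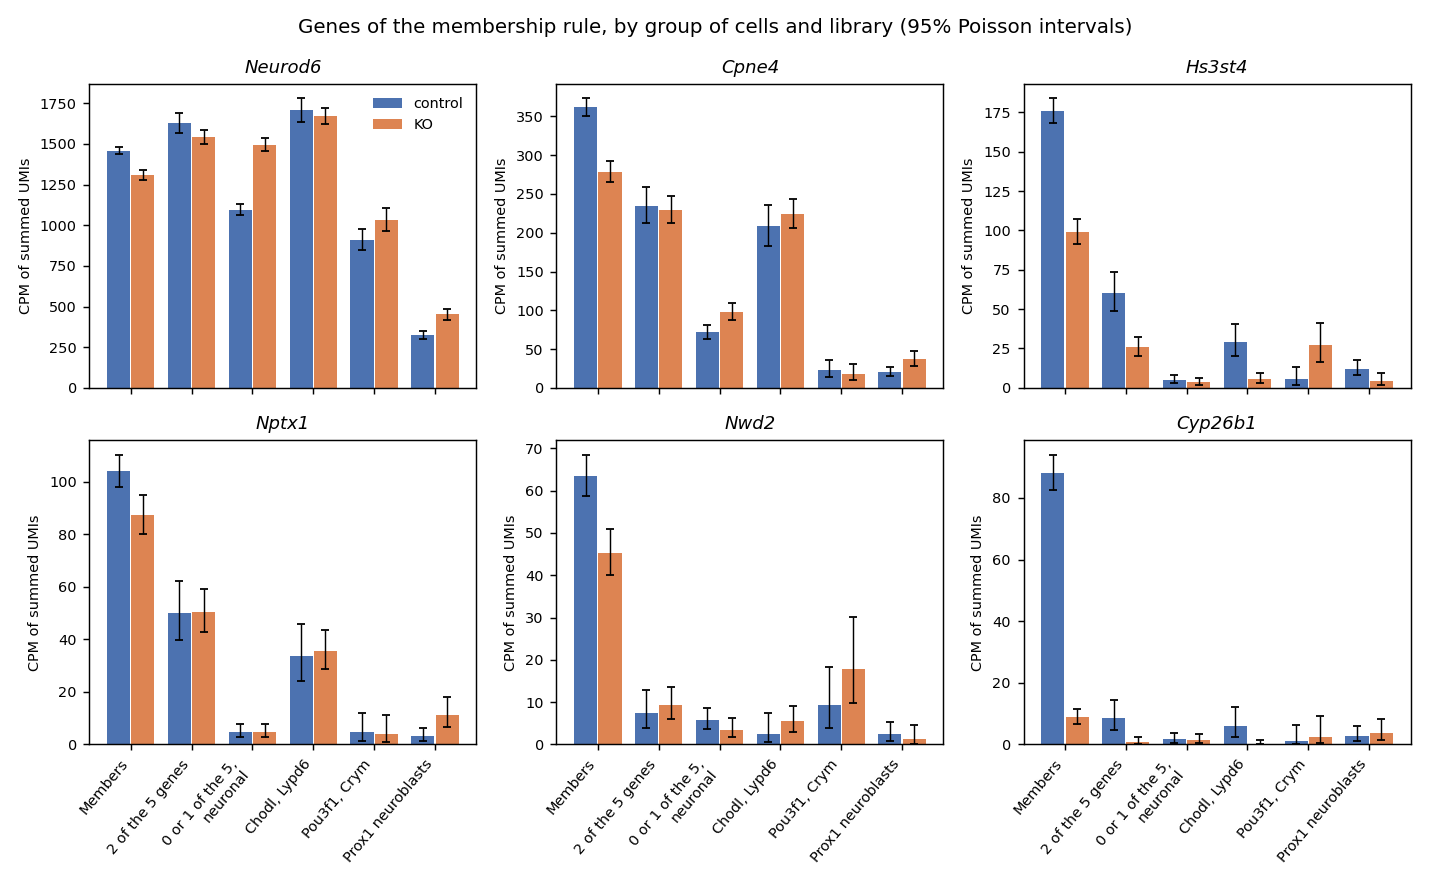
Levels of the 6 rule genes as CPM of summed UMIs (bars, 95% Poisson intervals, control in blue, KO in orange) in members and in 5 other groups of Neurod6 or Prox1 cells. Cyp26b1 was at 88.2 CPM in control members, at 8.91 CPM in KO members and at most at 8.54 CPM in the other groups plotted.

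The share of members differed a little less between the libraries when Cyp26b1 was taken out of the rule, and far less when only 2 genes were required. Requiring 2 of the other 4 genes gave 582 control cells (19.2%, interval 17.8 to 20.7%) and 368 KO cells (18.7%, 17.0 to 20.5%), whose intervals overlap. With Cyp26b1 kept, 2 of the 5 genes gave 19.6% and 18.8%, so the shares were near each other at 2 genes either way. Requiring 3 of the 4 gave 419 (13.8%, 12.6 to 15.1%) and 214 cells (10.9%, 9.54 to 12.3%), whose intervals do not overlap. Cyp26b1 itself, which did not choose these cells, was at 82.8 CPM (77.2 to 88.7) in the 419 control cells and at 7.96 CPM (5.87 to 10.5) in the 214 KO cells, a log2 ratio of −3.37.

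The excitatory label was set against its markers. Of the 12 genes of the excitatory list, 10 were measured against the other neuronal Neurod6 cells described below. Of these, 2 were at least 1.5-fold higher in members in both libraries and 1 lower, with median log2 ratios of 0.22 and 0.03. Between the libraries, 6 of 11 measured genes were lower in KO members and none higher (median −0.79). Slc17a7, the vesicular glutamate transporter VGLUT1 and no part of the rule, was detected in 93.8% of control and 90.5% of KO members, against 3.43% and 1.85% of endothelial cells, and in 61.3% and 44.5% of members after each cell was thinned to 4000 UMIs, against 1.36% and 0% of 221 and 192 thinned endothelial cells (0% allows up to 1.90%). The thinning left out 1 control and 2 KO members. Markers of GABAergic neurons summed to 7.70 and 6.48 CPM, with 3 of the 12 genes of the list at 0 in the KO library, and Gad1 and Gad2, which the rule limits, were both at 0 in 455 and 213 members. Markers of dividing cells summed to 56.2 and 55.1 CPM, against 1629 and 1076 CPM in Prox1 neuroblasts (cells with Prox1, Igfbpl1 and Dcx).

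Granule cell identity was scarce among the members. Prox1, the transcription factor that marks the dentate granule lineage, had UMIs in 32 control members (6.79%) and 11 of the 220 KO members. After thinning it was detected in 2.13% and 2.29% of members, no more than the 2.26% and 2.60% of endothelial cells. Single cells held up to 9 Prox1 UMIs among control members and up to 8 among KO members. Members with Prox1 also carried other granule cell transcripts, described below. The shares alone thus do not show that the Prox1 UMIs of members are background. Prox1 summed to 8.17 and 5.51 CPM in members and to 579 and 464 CPM in the Prox1 neuroblasts, which it helped choose. The 12 granule cell markers together stood at 83.7 and 145 CPM in members against 1015 and 742 CPM in the neuroblasts. Prox1 is in this list and supplied 579 and 464 CPM of the neuroblast sums, so much of that contrast follows from how the neuroblasts were chosen. In KO members Stxbp6 alone supplied 105 CPM of the sum. The markers were not evenly spread among members. A small cluster led by Ramp3, described below, had 366 and 345 CPM of them, with the granule marker Calb1 among its leading genes. The members outside the small clusters had 66.3 and 128 CPM. In most members the granule lineage factor was not detectable at this depth, although the tissue is labelled dentate gyrus.

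Of the CA1, CA2 and CA3 marker lists, that of CA3 pyramidal neurons had the highest sum over all members, at 1606 and 1207 CPM. It stood at 1438 and 1200 CPM in neurons with Chodl and Lypd6 outside the membership, and at 898 and 926 CPM in the other neuronal Neurod6 cells. Lypd6 is a gene of the CA3 list, so the sum in the neurons chosen by it is raised by that choice. The CA1 markers summed to 679 and 1019 CPM, most of it Crym (619 and 934 CPM), and the CA2 markers to 281 and 392 CPM. In a small cluster of members led by Ramp3, described below, the CA2 sum was 1328 CPM in control cells, above their CA3 sum of 1209 CPM, and 780 CPM in KO cells, under their CA3 sum of 968 CPM. Individual CA3 markers in members were Elavl2, an RNA-binding protein, at 340 and 285 CPM, Socs2 at 276 and 229 CPM, Trps1 at 254 and 112 CPM, the adhesion molecule Nectin3 at 160 and 133 CPM, Spock1 at 103 and 104 CPM and the kainate receptor subunit Grik4 at 69.1 and 55.3 CPM. CA1 markers with few transcripts were Mpped1, at 1.22 and 2.27 CPM, and Pou3f1, at 0.470 and 1.78 CPM. Against the other neuronal Neurod6 cells 4 of 10 measured CA3 markers were higher in members in both libraries and none lower, with medians of 1.22 and 0.53. Of 4 measured mossy cell markers 3 were higher and 1 lower, with medians of 1.54 and 1.39. Mossy cell markers summed to 469 and 956 CPM in a small cluster led by Adamts18, described below, and to 126 and 147 CPM outside both small clusters. Sums over different genes are not corrected for transcript capture, and no field or mossy cell identity was assigned to the members from these values.

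Members were compared with 2 sets of other Neurod6 cells in each library, as a description, since the same counts chose both sides. Against all 938 control and 483 KO Neurod6 cells with 0 or 1 of the 5 genes, 1208 of 10840 genes (11.1%) were at least 1.5-fold higher in members in both libraries and 2188 (20.2%) at least 1.5-fold lower. That set holds cells with vascular RNA (Cldn5, a tight junction gene of endothelial cells, stood at 825 and 596 CPM in it, and at 30.7 and 11.2 CPM in members). Of these calls 35.6% were higher, 52.2% with TMM factors, 46.9% with median-of-ratios factors and 49.7% with cells thinned to at most 5000 UMIs, and TMM moved the median log2 ratio over all genes from −0.17 to 0.11 in the control and from −0.10 to 0.06 in the KO library. Against the 562 control and 346 KO cells of that set with at least 0.5% of UMIs in 5 neuronal genes (Stmn2, Stmn3, Dcx, Tubb3 and Mapt), 876 of 9826 genes (8.92%) were higher and 636 (6.47%) lower in both libraries, with medians of −0.06 and −0.01. The values that follow are against these neuronal cells unless the other set is named.

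Among the genes farthest above in members were several with known roles at synapses or in calcium signalling, and others without, such as Fxyd7. Slc17a7 was at 292 CPM in control members against 31.3 CPM in the other neurons, and at 169 against 21.1 CPM in the KO library, log2 ratios of 3.22 and 2.99. Fxyd7, a regulator of the sodium pump, was 3.34 and 2.92 above on the log2 scale, the neuronal calcium sensor Hpca 1.92 and 1.60, and its relative Vsnl1 2.10 and 2.23. The kinase gene Camk2a, a core component of the postsynaptic density, was 2.85 and 1.98 above, the pentraxin receptor Nptxr 2.14 and 1.66, and the synaptotagmin Syt13 3.10 and 2.53. Receptors of transmitters with few transcripts were also higher, such as the neuropeptide Y receptor Npy2r (15.2 and 13.5 CPM in members) and the serotonin receptor Htr7 (14.8 and 17.5 CPM).

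By list, 15 of 22 measured synaptic vesicle genes were at least 1.5-fold higher in members in both libraries and none was lower, with median log2 ratios of 0.997 and 0.65. Snap25, a fusion protein of synaptic vesicles, stood 1.14 and 0.73 above and its calcium sensor Syt1 1.04 and 0.64 above. The voltage-gated channel list had 15 of 30 genes higher and none lower (medians 0.87 and 0.62), among them the sodium channel Scn8a at 99.3 against 39.1 CPM in the control library and the potassium channel Kcnq5 at 37.0 against 9.24 CPM. Slc17a6, the second vesicular glutamate transporter gene, had too few KO UMIs for the count and stood at 10.8 against 44.8 CPM in the control library. Of 21 postsynaptic scaffold and kinase genes 8 were higher and none lower, among them Nrgn, a calmodulin-binding protein gene, at 955 against 420 CPM in the control library. The glutamate receptor list was split, with 3 of 14 higher and 2 lower. The respiratory chain, with 27 genes, and cholesterol synthesis, with 21, had none past 1.5-fold in both libraries.

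Some neuroblast markers and pallial transcription factors were lower in members, whereas the 21 genes of the immature neuron list were nearly level, with 1 higher and 2 lower and medians of 0.04 and −0.00. Against all other Neurod6 cells 6 of those 21 were higher and 2 lower, with medians of 0.60 and 0.38. Stmn2, Stmn3, Dcx and Tubb3 of this list also chose the neuronal reference cells, so their levels there are raised by that choice. Igfbpl1, a marker of neuroblasts, stood at 143 and 144 CPM in members against 1613 and 1007 CPM in the other neurons. It was lower the more rule genes a cell held, from 1589 CPM with none to 472 with 2 and 106 with all 5 in the control library, and from 1161 to 410 and 54.2 CPM in the KO library. Slc17a7 went the other way, from 10.1 to 115 and 324 CPM in the control and from 6.39 to 58.3 and 236 CPM in the KO library. Sox11, a transcription factor of new neurons, stood at 736 against 1531 CPM in the control library, log2 ratios of −1.06 and −1.03. Dcx, the microtubule protein of migrating neurons, stood at 0.06 and −0.01, but it helped choose the neuronal cells it is set against. Of 9 measured neuroblast markers 5 were lower and none higher, and of 35 pallial transcription factors 10 were lower and none higher, among them Bcl11b at 34.3 against 249.8 CPM and Nfia at 181 against 543 CPM in the control library.

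**Figure D2:**
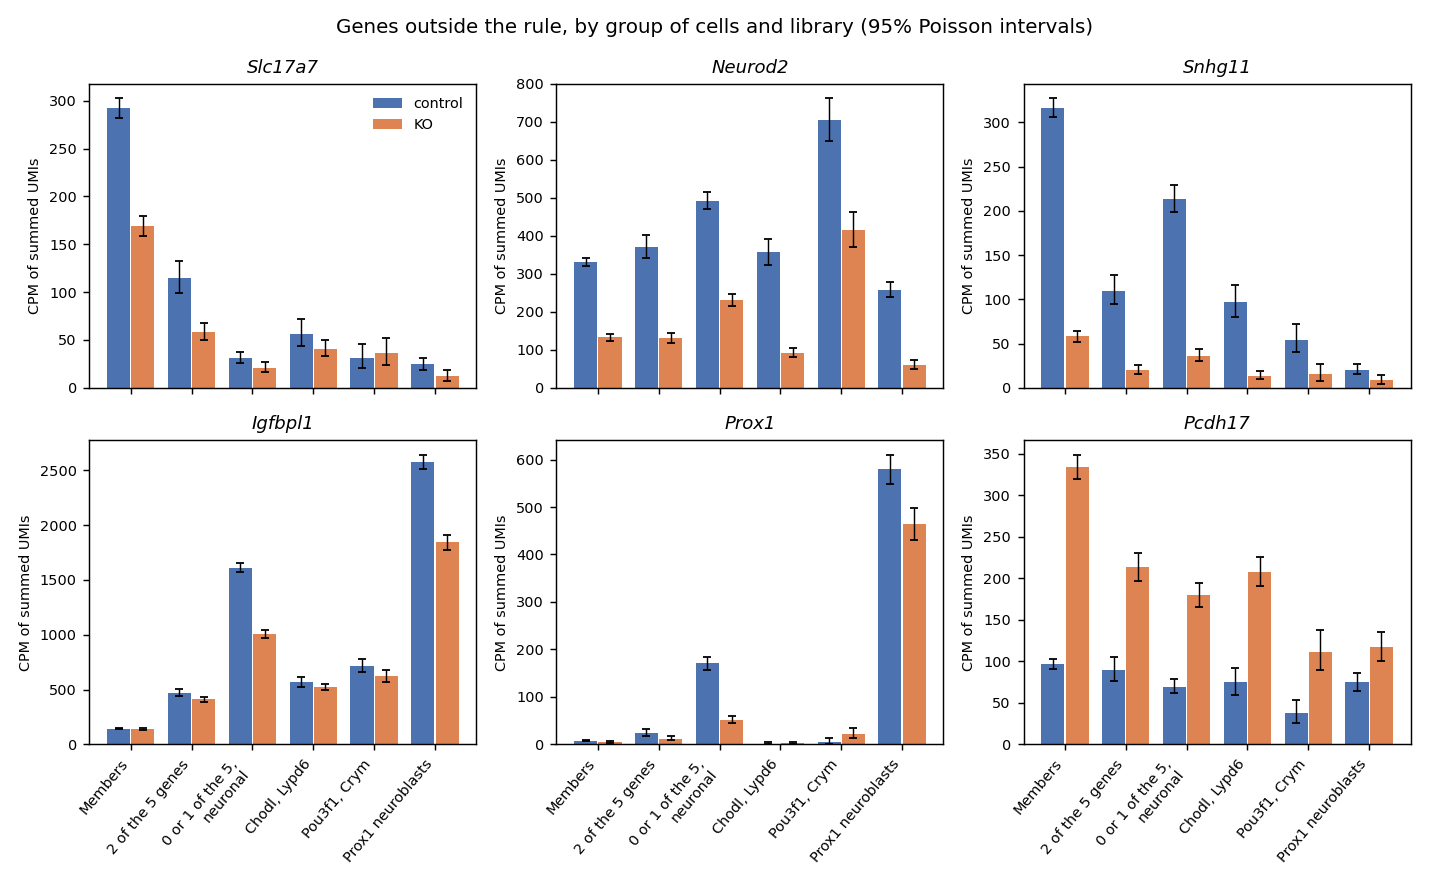
Levels of 6 genes that the rule did not use, as CPM of summed UMIs (bars, 95% Poisson intervals, control in blue, KO in orange). Slc17a7 and Snhg11 stood highest in members in both libraries, Igfbpl1 and Prox1 lowest or near lowest, Neurod2 was lower and Pcdh17 higher in the KO library in each of the 6 groups.

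A narrower set for comparison was the neurons with Neurod6, Chodl and Lypd6 outside the membership, 82 control and 132 KO cells, some of which are also cells with 2 of the 5 genes. Against them 544 of 9524 genes (5.71%) were at least 1.5-fold higher in members in both libraries and 205 (2.15%) lower. Slc17a7 was at 56.2 and 41.1 CPM in them, the diacylglycerol kinase Dgkg at 5.03 and 4.69 CPM against 47.3 and 54.1 CPM in members, and Npy2r at 1.68 and 0.782 CPM. The potassium channel gene Kcnd2 stood 1.13 and 1.23 above them on the log2 scale. Igfbpl1 was at 568 and 520 CPM in them, above the 143 and 144 CPM of members. Of 29 voltage-gated channel genes 11 were higher in members and none lower, and of 33 axon guidance genes 10 were higher and 3 lower. The synaptic lists differed less here than against the other neuronal Neurod6 cells. Of 22 synaptic vesicle genes 5 were higher and none lower, with medians of 0.60 and 0.42. Of 21 postsynaptic scaffold and kinase genes 5 were higher and none lower. None of 12 glutamate receptor genes was past 1.5-fold in both libraries.

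Between the libraries, 10885 genes had at least 50 UMIs over all members. In the KO library 446 of them (4.1%) were at least 1.5-fold higher and 554 (5.09%) at least 1.5-fold lower, with a median log2 ratio of −0.02. The exact interval of the ratio lay wholly beyond 1.5-fold for 131 and 118 genes. Kdm6b, the targeted gene (chromosome 11, 69398508 to 69413675, minus strand), had 421 UMIs in 252 control members, 39.5 CPM (35.9 to 43.5), and 178 UMIs in 115 KO members, 28.8 CPM (24.8 to 33.4), a log2 ratio of −0.45. The labels do not say which exons are flanked by loxP sites, so 3′ counts do not check the deletion. Its X-linked relative Kdm6a stood at 11.6 and 13.5 CPM, with overlapping intervals.

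**Figure D3:**
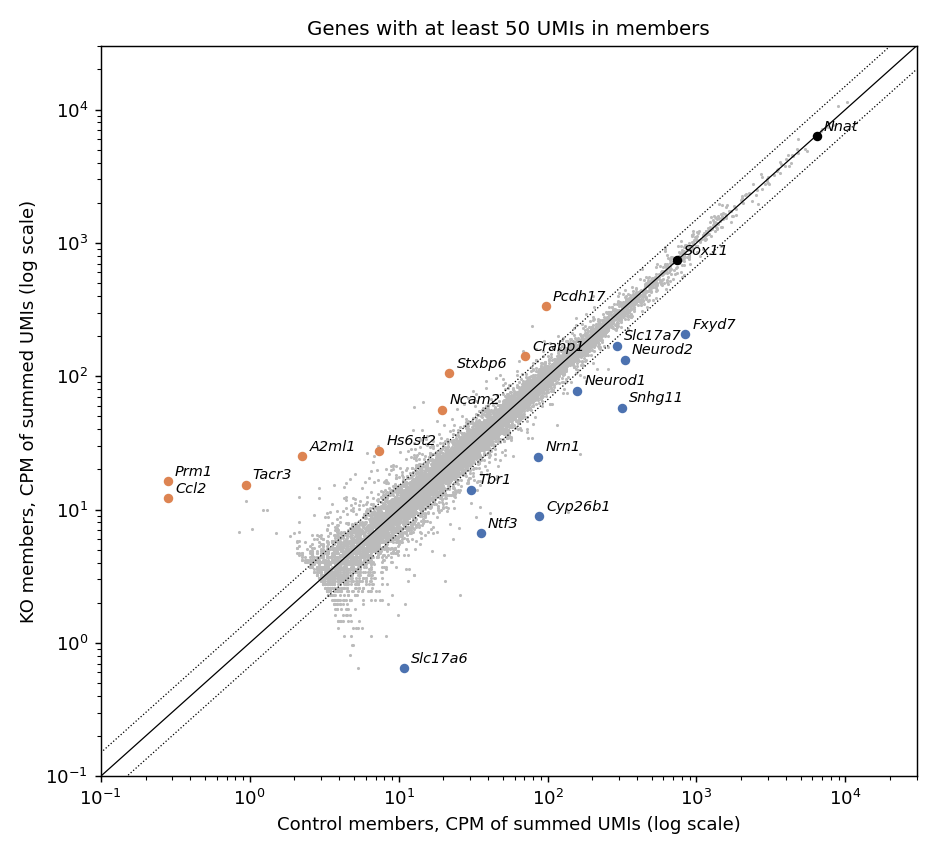
Each gene with at least 50 UMIs in members, by its CPM in control (x, log scale) and KO members (y, log scale). Named genes above the upper 1.5-fold line are in orange and those under the lower one in blue; Cyp26b1, Slc17a6, Snhg11 and Fxyd7 lie far below the diagonal, Tacr3, A2ml1, Stxbp6 and Pcdh17 far above it, and Sox11 and Nnat on it.

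Retinoic acid genes went both ways, 3 of 9 measured genes higher and 3 lower, with a median of −0.38. The list includes the rule gene Cyp26b1, which is among the lower ones. Its median ranged from −0.79 with 4 of the 5 genes required to 0.05 among members without a Cyp26b1 UMI. Cyp26b1 had 939 UMIs in 246 of 471 control members and 55 UMIs in 32 of 220 KO members, 88.2 CPM (82.7 to 94.0) against 8.91 CPM (6.72 to 11.6), a log2 ratio of −3.29 with an interval of the ratio from 0.0755 to 0.133. That log2 ratio ranged over the alternatives from −4.15 with a stricter cell filter (1000 genes, 2000 UMIs and at most 5% mitochondrial UMIs) to −2.66 with cells thinned to at most 5000 UMIs. After thinning to 4000 UMIs it was detected in 22.8% (19.1 to 26.8%) of control and 1.83% (0.502 to 4.63%) of KO members, against 0.452% and 0% of endothelial cells. Without thinning the shares were 52.2% (47.6 to 56.8%) of control and 14.5% (10.2 to 19.9%) of KO members, against 3.0% and 1.85% of endothelial cells, whose median depths were 23398 and 21486 UMIs. Among members with Xist and without Y-linked UMIs the log2 ratio was −2.86.

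Other enzymes and binding proteins of the pathway were measured too. Rdh10, which makes retinaldehyde, stood at 10.2 and 6.32 CPM (−0.68, and −0.38 among members without Cyp26b1). Crabp1, which binds retinoic acid in the cytoplasm, was the abundant gene of the list that was higher in the KO library, with 752 and 876 UMIs, 70.6 CPM (65.7 to 75.9) against 142 CPM (133 to 152), with a log2 ratio of 1.01. Dhrs3 had 25 and 26 UMIs (0.84, and 0.51 with 2 of the 5 genes required), and its interval of the ratio, 0.996 to 3.24, included 1. The receptor Rarb had 20 and 5 UMIs, too few for the count.

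Transcription factors of excitatory neurons were lower in the KO library in 4 cases and higher in 10 among the 36 measured pallial factors, with a median of 0.03. Neurod2 (chromosome 11, 98325415 to 98329648, minus strand), a relative of Neurod6, had 3516 control UMIs in 463 members, 330 CPM (319 to 341), and 821 KO UMIs in 176 members, 133 CPM (124 to 142), a log2 ratio of −1.31. It was detected in 71.3% of control and 37.2% of KO members after thinning. Neurod1 stood at 158 and 77.8 CPM (−1.03) and Tbr1, a T-box factor of glutamatergic neurons, at 30.7 and 14.1 CPM (−1.12). Neurod6 itself differed by −0.16 and Zbtb20, a hippocampal identity factor, at 2245 and 2352 CPM, by 0.07. The fourth factor below, Mef2c (−0.63), reversed to 0.51 among members with Xist and no Y-linked UMI and to 0.17 among members without Cyp26b1, so it has no stable direction.

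On the higher side were Foxp1 at 83.6 and 160 CPM (0.94), the COUP factor Nr2f1 at 51.6 and 89.0 CPM (0.79), the LIM-only factor Lmo4 at 206 and 330 CPM (0.68), Nfia at 181 and 291 CPM (0.69), Lhx2 at 155 and 244 CPM (0.65) and the ETS factor Etv1 at 8.27 and 20.1 CPM (1.28). Bcl11b, a zinc finger factor of deep cortical and hippocampal neurons, had 365 UMIs in 83 control members and 318 UMIs in 66 KO members, 34.3 and 51.5 CPM (0.59). Its ratio was 1.38 among Xist-only members, 0.48 as a mean of cell fractions and 0.13 without a cluster of members led by Bgn, so its call depends on the cells used. Lmo4 was at 0.53 without that cluster, Lhx2 at 0.58 with the stricter cell filter and Nfia at 0.57 with 4 of the 5 genes required, each just short of 1.5-fold, and Nfia at 1.30 with thinned cells.

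Both vesicular glutamate transporter genes were lower in the KO library. Slc17a7 (chromosome 7, 45163949 to 45176142, plus strand) had 3111 and 1044 UMIs, 292 CPM (282 to 303) against 169 CPM (159 to 180), with a log2 ratio of −0.79, which was −0.46 with cells thinned to at most 5000 UMIs. Slc17a6 (chromosome 7, 51622006 to 51671119, plus strand), which encodes VGLUT2, the transporter that many young neurons use, had 115 UMIs in 95 control members and 4 UMIs in 4 KO members, 10.8 and 0.648 CPM, a log2 ratio of −3.90 with an interval of the ratio from 0.0161 to 0.158. Of 24 measured synaptic vesicle genes only these 2 and Sncb (349 and 226 CPM, −0.63, and −0.50 with thinned cells) were past 1.5-fold, none of them higher, and the median was −0.19. Syt4 differed by 0.56, short of 1.5-fold. Of 14 glutamate receptor genes 1 was higher, the AMPA receptor subunit Gria4 with 35 and 44 UMIs (1.11), and Grin2b, an NMDA receptor subunit gene, stood at 430 and 636 CPM (0.57), short of 1.5-fold. Nrn1, which encodes the secreted neuritin, had 86.2 and 24.96 CPM (−1.78, and −0.96 with thinned cells).

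Inhibitory receptor genes had 4 of 13 members higher and none lower, with a median of 0.23. The subunit genes Gabrg3, with 29 and 56 UMIs, and Gabra3, with 36 and 54 UMIs, had log2 ratios of 1.72 (2.62 among Xist-only members) and 1.37 (2.00 with the stricter cell filter). The chloride importer Slc12a2 stood at 16.4 and 25.8 CPM (0.65), which was 0.35 among members without Cyp26b1 and also 0.35 with 2 of the 5 genes required. Gabra5, with the most UMIs of the list, was at 225 and 264 CPM (0.23). Of 30 voltage-gated channel genes 1 was lower, the calcium channel subunit Cacna2d1 at 150 and 75.7 CPM (−0.99), and 1 was higher, Kcnd2 at 54.0 and 81.0 CPM (0.59), which turned to −0.13 with thinned cells.

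Cell adhesion was the list with the most genes above, 13 of 32 measured genes higher and 1 lower (Cdh9, −0.63, and −0.37 with 4 of the 5 genes required), with a median log2 ratio of 0.25. The shift of the list was not particular to members. Its median was 0.32 in the other neuronal Neurod6 cells and 0.26 in the Chodl and Lypd6 neurons. It was 0.29 in neurons with Pou3f1 and Crym and 0.46 in the Prox1 neuroblasts. Pcdh17, a protocadherin of axons and synapses, had 1033 UMIs in 354 control members and 2060 UMIs in 217 KO members, 97.0 CPM (91.2 to 103) against 334 CPM (320 to 349), with a log2 ratio of 1.78. After thinning it was detected in 30.0% of control and 69.7% of KO members, and in 11.8% and 18.8% of endothelial cells. Pcdh19 stood at 94.7 and 185 CPM (0.96), Ncam2 at 19.6 and 56.2 CPM (1.52), the contactin-associated Cntnap5a at 14.3 and 39.2 CPM (1.46), the teneurin Tenm4 at 38.8 and 91.9 CPM (1.24), and Negr1 at 63.9 and 130 CPM (1.02). These 13 genes were of several families, cadherins, protocadherins, teneurins and immunoglobulin-type molecules.

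Axon guidance genes had 4 of 35 higher and 4 lower, with a median of 0.00. The lower ones were 3 Eph receptor genes and a semaphorin: Epha5 was the most abundant, at 1454 and 940 CPM (−0.63, and −0.40 among members without Cyp26b1), Epha7 stood at 126 and 75.2 CPM (−0.75, and −0.54 with thinned cells), Epha3 at 63.3 and 39.9 CPM (−0.67), and Sema5a at 15.1 and 9.08 CPM (−0.73). Epha3 was at −0.48 with the stricter cell filter and at −2.55 with thinned cells, and Sema5a turned to 0.22 among Xist-only members. The higher ones were 2 ephrin genes, Efna5 with 9 and 42 UMIs (2.95) and Efnb2 with 35 and 58 UMIs (1.51), the netrin receptor Unc5d at 15.3 and 30.8 CPM (1.01) and Sema3c at 61.9 and 109 CPM (0.82), which turned to −0.51 with thinned cells. For Efna5 1 KO cell held 28.6% of the UMIs.

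Genes related to the other rule genes were mixed. In the copine list Cpne6 (96 and 14 UMIs, −1.95) and Cpne3 (66 and 20 UMIs, −0.91, and −0.54 without the cluster led by Bgn) were lower and Cpne7 (0.72) higher of 7 measured. Cpne7 was at 0.24 without the 2 small clusters and at 0.33 without the cluster led by Bgn. In the heparan sulfate list the 6-O-sulfotransferase Hs6st2 stood at 7.42 and 27.6 CPM (1.89) and Hs3st1 at 3.57 and 7.94 CPM (1.15, and 0.58 with 2 of the 5 genes required), against −0.83 for the rule gene Hs3st4, which was −0.17 with thinned cells. Of 10 pentraxin and synapse organizer genes 1 was lower, Nrn1, and none higher. Nptxr stood at 231 and 180 CPM (−0.36) and Nptx2 had 36 and 14 UMIs with an interval of the ratio that included 1.

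Beyond the lists, the genes farthest below in the KO library were led by Cyp26b1. Snhg11, a long noncoding host gene of small nucleolar RNAs that is abundant in neurons, had 3370 UMIs in 378 control members and 358 UMIs in 78 KO members, 317 CPM (306 to 327) against 58.0 CPM (52.2 to 64.4), with a log2 ratio of −2.45, and was detected in 50.9% and 15.1% of thinned members. Fxyd7 had 838 CPM (821 to 856) against 207 CPM (196 to 218), with a log2 ratio of −2.02. Ntf3, the neurotrophin-3 gene, had 35.6 and 6.64 CPM (−2.41), and Hhip, which binds hedgehog ligands, 217 and 18 UMIs (−2.77). Slc30a3, the vesicular zinc transporter of glutamatergic terminals, had 106 and 10 UMIs (−2.56), Nxnl2 117 and 12 (−2.45), Psmc3ip 216 and 28 (−2.14) and Tnnt1 57 and 4 (−2.89). All of these stayed more than 1.5-fold lower in each of the alternatives in which they were measured, though Hhip moved to −1.73 among Xist-only members, Ntf3 to −1.57 and Fxyd7 to −1.31 with thinned cells, Ntf3 to −3.06 without the cluster led by Bgn, and Nxnl2 to −1.74 without that cluster. Psmc3ip moved to −2.82 and Tnnt1 to −3.90 among Xist-only members, and Slc30a3 to −3.39 outside 2 small clusters described below. Igfbp4, which binds insulin-like growth factors, had 437 and 58 UMIs (−2.12), but −0.91 among Xist-only members, −0.47 among members without Cyp26b1 and −0.13 outside those clusters.

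The genes farthest above included Tacr3, the neurokinin B receptor gene, with 10 UMIs in 10 control members and 95 UMIs in 63 KO members, 0.939 and 15.4 CPM, a log2 ratio of 3.97. After thinning it was in 0.213% and 5.96% of members and in 1.36% and 1.04% of endothelial cells. A2ml1 had 24 and 155 UMIs (3.45), the cell cycle inhibitor gene Cdkn2a 13 and 61 (2.97), the myosin gene Myh7 23 and 77 (2.51) and Fndc9 11 and 44 (2.74). Better counted was Stxbp6, which encodes the SNARE-binding protein amisyn, at 21.9 CPM (19.2 to 24.9) against 105 CPM (97.1 to 113), with a log2 ratio of 2.26. St18, a zinc finger factor, had 155 UMIs in 27 control members and 395 UMIs in 60 KO members (2.13, with 1.23 in thinned cells and 3.35 outside the 2 small clusters). Among Xist-only members Cdkn2a was at 4.86, Myh7 at 3.32 and Fndc9 at 2.07, and without Cyp26b1 members Tacr3 was at 3.23.

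A few genes at the top rest largely on single cells or stood higher in other cells of the KO library. Ccl2, Ccl3 and Ccl4, chemokine genes of activated microglia, ranked among the genes farthest above, but 1 KO member held 200 of the 208 KO UMIs of the 3 genes and 48 UMIs of the C1q genes. Without the members that had more than 3 vascular or microglial UMIs their log2 ratios were 1.94, −2.45 and −0.36. Prm1, a sperm chromatin protein gene (chromosome 16, 10796326 to 10805839, minus strand), had 3 UMIs in control and 101 in KO members, of which 1 cell held 43, a log2 ratio of 5.64 with an interval of the ratio from 19.3 to 286, and 4.61 with doublets removed. It stood at 16.4 CPM in KO members, at 24.9 CPM in the other Neurod6 neurons and at 271 CPM in the Prox1 neuroblasts of that library. Without thinning it was detected in 0.637% of control and 20.9% of KO members. The source of its UMIs, the transgene included, was not tested.

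Lists of general cell biology were near the level of all genes. None of 21 immature neuron genes, 21 cholesterol synthesis genes and 27 respiratory chain genes was past 1.5-fold, with medians of −0.02, −0.05 and −0.09. Of 17 glycolysis genes 1 was lower, and of 20 mature cytoskeleton and RNA-binding genes 2 were lower, Nefh and the RNA-binding Elavl4 (72.7 and 40.0 CPM, −0.86, and −0.46 without Cyp26b1 members). The immediate early list had Fosl2 higher (12.8 and 31.8 CPM, 1.31) and Arc (−0.70, and −0.28 among Xist-only members) and Nr4a1 (−0.90, and −0.58 among members without Cyp26b1) lower of 16 measured. Of 13 H3K27 enzymes Ezh2, the methyltransferase of the polycomb complex, stood higher at 16.7 and 26.3 CPM (0.65, and 0.51 among members without Cyp26b1), and the Y-linked Uty was the gene counted as lower. In the neuropeptide list Scg5 (156 and 275 CPM, 0.82) and Grp (0.60, and 0.15 among members without Cyp26b1) were higher and Gal (21.98 and 7.78 CPM, −1.49) and Adcyap1 (−1.06) lower of 13.

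**Figure D4:**
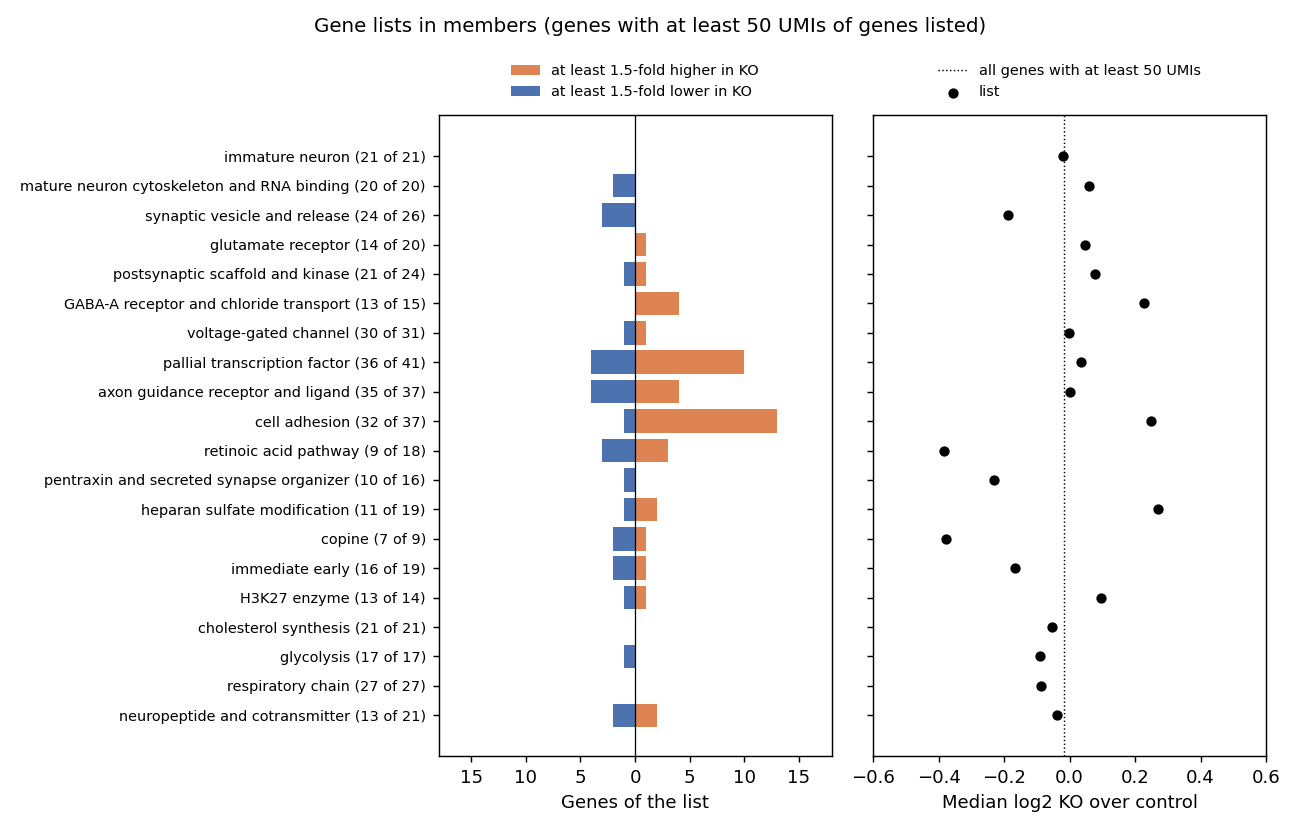
For each of 20 gene lists, the number of genes at least 1.5-fold higher (right, orange) or lower (left, blue) in KO members, and the median log2 ratio (points; the line marks −0.02, the median of all genes). Cell adhesion has the most genes on the higher side, 13. The retinoic acid pathway and copine lists, each of which includes a rule gene, have the lowest medians, both −0.38.

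Several of the larger differences were also present in neurons outside the membership, and the differences between groups of cells were not tested. Neurod2 had log2 ratios of −1.31 in members, −1.09 in the other neuronal Neurod6 cells, −1.95 in the Chodl and Lypd6 neurons, −0.76 in neurons with Pou3f1 and Crym and −2.10 in the Prox1 neuroblasts. Snhg11 had −2.45 in members and −2.55, −2.80, −1.78 and −1.17 in the same 4 groups, and Pcdh17 had 1.78 in members and 1.37, 1.47, 1.53 and 0.65. Stxbp6 was 2.26 in members and 0.06, 0.70, −0.38 and 0.40 in the others, and Crabp1 1.01 in members and 0.01, 0.52, −0.65 and 0.30. Cyp26b1 outside the members was too low to set beside them, at most 5.87 CPM in the control library among these 4 groups. Slc17a6 was lower in the KO library in each of them, with 165 and 12 UMIs in the other neuronal Neurod6 cells and 47 and 0 UMIs in the Pou3f1 and Crym neurons.

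The members were not uniform. Clustering of the members alone gave 6 clusters, 4 of which held mostly cells of 1 library and are not compared. The largest of these 4, with 197 control and 18 KO cells, was led by genes of mural and endothelial cells (Bgn, Higd1b, Rgs5, Tm4sf1, Igfbp7 and Cldn5). Its endothelial markers summed to 143 and 125 CPM and its mural markers to 43.7 and 67.5 CPM, but Bgn had UMIs in 7 and Higd1b in 3 of the 197 control cells, whereas Slc17a7 had UMIs in 170 and Neurod6 in all 197. A cluster of 37 control and 24 KO cells was led by Ramp3, a receptor activity-modifying protein, Rspo3, a Wnt agonist, the serotonin receptor Htr2c and St18, and a cluster of 13 control and 6 KO cells by Adamts18, Tppp3, Kitl and Necab1. The other 421 control and 190 KO members, this largest cluster included, are given as 1 group, in which endothelial markers summed to 85.6 and 45.2 CPM. In control cells Nptx1, which the rule used, was at 39.6 CPM in the Ramp3 cluster, 10.98 CPM in the Adamts18 cluster and 111 CPM in the others. Fxyd7 was at 992, 10.98 and 851 CPM, and Cyp26b1, which the rule also used, at 128, 234 and 81.5 CPM.

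The KO to control ratio of several genes differed among these clusters, again untested. Nptx1, a rule gene given only as a description, was higher in KO cells of the Ramp3 cluster, with 25 and 66 UMIs, 39.6 and 118 CPM (1.56, interval of the ratio 1.86 to 4.93), and lower among the others, at 111 and 85.8 CPM (−0.37, 0.694 to 0.865). Over all members Cyp26b1 had UMIs in 52.2% of control and 14.5% of KO cells, and Nptx1 in 76.6% and 90.9%. The libraries thus met the rule through these genes in different proportions. Mef2c was at 439 and 129 CPM in the Ramp3 cluster (−1.76) and at 26.3 and 23.6 CPM in the others (−0.15). Neurod2 differed least in the Ramp3 cluster, at 490 and 370 CPM (−0.40), and most in the others, at 323 and 109 CPM (−1.56). Fxyd7 followed the same order, at 992 and 653 CPM (−0.60) and at 851 and 166 CPM (−2.36). Without the cluster led by Bgn the group of others, then 224 control and 172 KO cells, had log2 ratios of −0.58 for Nptx1, −0.09 for Mef2c, −1.56 for Neurod2 and −2.59 for Fxyd7. Cyp26b1, also a rule gene, was lower in the KO library in all 3, with 81 and 2 UMIs, 64 and 5 UMIs, and 794 and 48 UMIs. Igfbp4, which helped define the Ramp3 cluster, had 337 of its 437 control UMIs there.

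**Figure D5:**
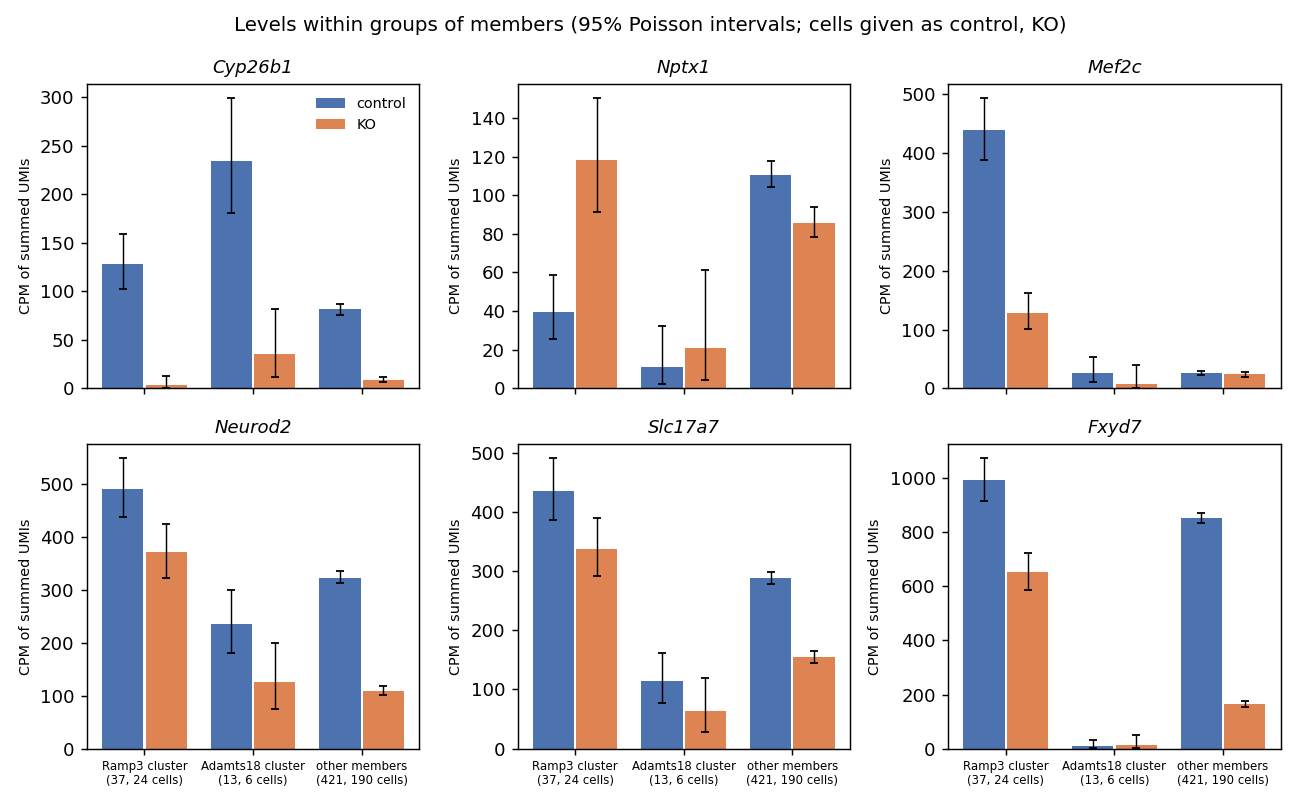
Levels of 6 genes as CPM of summed UMIs (bars, 95% Poisson intervals, control in blue, KO in orange) in the Ramp3 cluster, the Adamts18 cluster and the other members. Cyp26b1 and Nptx1 are rule genes, and their levels helped choose the cells. Mef2c is highest in the Ramp3 cluster, at 439 and 129 CPM, and Fxyd7 is at 10.98 CPM in control cells of the Adamts18 cluster.

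Control members with a Cyp26b1 UMI (246) and without 1 (225) had similar depth, with medians of 20659.5 and 21023 UMIs, and differed in other genes. Ntf3 stood at 54.9 CPM with and 14.1 CPM without Cyp26b1, the kinase Camk2d at 32.3 and 8.14 CPM and Trps1 at 335 and 164 CPM. The other way, Crym stood at 435 with and 823 CPM without, Grp, the gastrin-releasing peptide gene, at 44.0 and 114 CPM, and Sox5 at 14.4 and 37.9 CPM. The 32 KO members with a Cyp26b1 UMI showed the same order against the 188 without for Camk2d (29.1 and 7.06 CPM), Trps1 (189 and 99.0 CPM) and Sox5 (7.54 and 32.0 CPM). Cldn5 moved with the split as well, at 44.7 and 15.1 CPM in control members, and its part was not tested.

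The few members with a Prox1 UMI, 32 control and 11 KO cells, were deeper, with medians of 25349.5 and 38868 UMIs against 20403 and 25955 for the rest. Calb1, the calbindin gene of granule cells, stood at 62.4 CPM in them and at 0.817 CPM in the other control members, and at 25.6 and 1.20 CPM in the KO library. The synaptic organizer C1ql3 stood at 25.9 and 0 CPM in control members and at 19.9 and 0.344 CPM in KO members, and Sema5a at 71.9 and 10.2 CPM in control members. The cells with Prox1 thus carried several granule cell transcripts, and without them the log2 ratios were near those of all members, with Cyp26b1 at −3.25, Neurod2 at −1.28 and Slc17a7 at −0.76.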

How the data were processed

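The authors deposited raw UMI counts, as whole numbers, for 31053 genes in each barcode. The submitters' processing notes name Cell Ranger 3.0.2, Seurat 3 and mm10 without saying what each was used for. The control and KO files held 3555 and 2292 barcodes with 33517318 and 26819750 UMIs. Members and gene lists were chosen with earlier results of these data known. UMIs were summed per library and group of cells and given as CPM. Ratios are log2 of KO over control CPM with 0.5 UMI added to each sum, for genes with at least 50 UMIs. A gene counted as higher or lower at 1.5-fold. Poisson intervals were used for sums, conditional binomial intervals for ratios and Clopper-Pearson intervals for shares, all exact and at 95%. Shares were also taken after thinning to 4000 UMIs, with endothelial cells (at least 3 of 4 genes) for comparison. The members were clustered with Leiden (scanpy 1.11.5, 2000 variable genes, 20 components, 15 neighbours, resolution 0.5). TMM factors came from edgeR 4.0.16. The rule kept possible doublets, and removing the highest Scrublet scores (101 control and 42 KO barcodes) took out 11 and 6 members. The ratio step was tested on simulated counts. Gene coordinates are from a GRCm38 annotation.

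Named were the 12 genes most above and the 12 most below in KO members, ranked on the end of the ratio interval closest to 1, leaving out mitochondrial, ribosomal, haemoglobin, sex-linked and predicted genes. To these were added the 15 most above and 10 most below in members against other Neurod6 neurons, up to 6 genes of each list and a fixed set of factors and transporters. Chosen after seeing their values, and outside that choice, were Foxp1, Lhx2, Lmo4, Nfia, Nr2f1, Epha3, Epha7, Sema3c, Sema5a, Pcdh19, Cdh9, Negr1, Tenm4, Nefh, Arc, Adcyap1, Snap25, Syt1, Scn8a, Kcnq5, Igfbpl1, Elavl2, Nectin3, Socs2, Spock1, Trps1, Crym, Sox5, Calb1, Calb2 and the genes that lead clusters. The 24 alternatives changed cell filters, the rule, scaling, depth, count minimums and the cells used. Most were planned, and the rest were added after the data were seen. Some genes of the lists are not reported here.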

Additional observations from a re-analysis of the deposited data

Results flagged for a closer look

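For a few genes the KO to control ratio went one way in the members and the opposite way, by at least 1.5-fold each, in another group of neurons, and these differences were not tested. Igfbp4 had a log2 ratio of −2.12 in members (41.1 and 9.40 CPM, but −0.13 without the 2 small clusters) and 0.64 in the neurons with Pou3f1 and Crym (74.0 and 115 CPM). Bcl11b had 0.59 in members (34.3 and 51.5 CPM, and 0.13 without the cluster led by Bgn) and −0.86 in the neurons with Chodl and Lypd6 (27.7 and 15.2 CPM). Ezh2 had 0.65 in members (16.7 and 26.3 CPM, and 0.51 without Cyp26b1 members) and −0.68 in the Prox1 neuroblasts (284 and 177 CPM). The endothelial gene Cldn5 had −1.45 in members (30.7 and 11.2 CPM, and −0.75 with doublets removed), 3.75 in the neurons with Pou3f1 and Crym (9.25 and 132 CPM) and 1.69 in the Prox1 neuroblasts (86.8 and 280 CPM). Igfbp7, also a gene of vessels, had −1.03 in members (18.04 and 8.75 CPM, but −0.11 with doublets removed, −0.49 without members that had vascular or microglial UMIs above 3, and −0.09 without the cluster led by Bgn) and 1.21 in the Prox1 neuroblasts (76.6 and 177 CPM).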

How the results depend on the processing

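Each result was recomputed under up to 24 alternatives. Of 86 named genes past 1.5-fold between the libraries, 54 stayed past it the same way in every alternative in which they were measured, and 4 changed sign: Sema3c was −0.51 and Kcnd2 −0.13 with cells thinned to at most 5000 UMIs, and Mef2c was 0.51 among members with Xist and no Y-linked UMI, 0.0045 with thinned cells and 0.17 without Cyp26b1 members, and Sema5a was 0.22 with Xist and no Y-linked UMI. Members numbered 298 in control and 108 in KO with 4 of 5 genes required, 370 in KO with 2 of 5, 215 and 40 after thinning to 5000 UMIs, 127 in KO under the stricter cell filter, 368 in KO with 2 of 4 genes without Cyp26b1, and 200 control cells had Xist alone. Their share in control and KO was 14.2% and 9.05% under the stricter filter, 13.4% and 9.60% without a cell filter, 19.6% and 18.8% with 2 of 5 genes, 9.84% and 5.49% with 4 of 5, 7.10% and 2.03% after thinning, and 19.2% and 18.7% with 2 of 4, and 13.8% in control with 3 of 4. Genes higher and lower in the KO library were 721 and 898 with at least 20 UMIs, 282 and 357 with at least 100, 2894 and 3356 with no count filter, and 137 and 170 at 2-fold. Genes higher and lower than in other Neurod6 cells were 672 and 681 after thinning, 1878 and 5312 with no count filter and 491 and 1295 at 2-fold. They were 1811 and 1657 with TMM factors, and 876 and 636 against the neuronal subset alone. No paired analysis was possible because each genotype has 1 library. The cause of these moves was not tested. Genes with few UMIs, such as Rarb with 20 and 5, are limited by depth. Sex and genotype cannot be told apart for genes measured in too few Xist-only members.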

Other observations

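Of the genes farthest above in members, Tmem114 and Slc6a7 belong to none of the functional lists described so far. Nnat is in the immature neuron list, where it was the gene counted as higher in members. Nnat, an imprinted membrane protein gene of developing neurons, was at 6415 CPM in control and 6299.6 CPM in KO members, and against other neuronal Neurod6 cells it stood 1.80 and 1.60 above on the log2 scale. Tmem114 stood at 39.3 and 18.5 CPM in members and at 7.07 and 1.76 CPM in those cells. The transporter gene Slc6a7, which takes up proline at glutamatergic terminals, was at 39.7 and 36.8 CPM against 7.34 and 5.57 CPM.

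In the Adamts18 cluster Calb2, the calretinin gene, was at 315 CPM in control and 837 CPM in KO cells, against 42.5 and 90.0 CPM in the members outside both small clusters. Pcdh17 was higher in the KO library in the Ramp3 cluster (181 and 623 CPM) and in the members outside both clusters (91.6 and 309 CPM), while the interval of its ratio in the Adamts18 cluster, 0.843 to 2.83 with 27 and 22 UMIs, included 1.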
